A study of Mus musculus with 46 samples.

Results

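The first 33 candidate cis-regulatory elements (cCREs) of the Tfcp2l1 locus were examined as reporter constructs in mouse embryonic stem cells. They are the fragments with names in E that begin before a boundary between the Clasp1 span and the Tfcp2l1 promoters on chromosome 1 (mm10), without E017 and E031. They made up 33 of the 232 cCREs of the Tfcp2l1 library and of the 423 cCREs of all Upstream libraries. The choice used position, except that E017 and E031, which lie inside the stretch, were left out by name. Fragments of about 450 bp ran from E002 at chr1:117851628-117852078 to E049 at chr1:118602132-118602582, and the first cCRE beyond the boundary was E051 at chr1:118622758-118623208. E049 and E051 had mean boost indices, defined below, of -0.76 and -0.50. The left-out neighbours differed from each other: E017 had an index of 4.58 and E031 of 0.10.

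The study measured fragments alone and in pairs with a massively parallel reporter assay. Plasmids that carried 1 or 2 fragments upstream of a barcoded reporter were brought by nucleofection into E14TG2a, an established mouse embryonic stem cell line kept in 2i medium with LIF, and RNA was taken after 24 h. The values used here come from the 3 biological replicates of the Tfcp2l1 Upstream mix, all untreated cells of 1 genotype that received the same plasmid pool, so the replicate error leaves out differences between plasmids. Activity is the deposited ratio of reporter cDNA to plasmid DNA on a linear scale.

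Enhancers are stretches of DNA where transcription factors bind and raise transcription from promoters, often over long distances. A reporter plasmid takes such a fragment out of its chromosomal place and asks what the sequence alone can do. Tfcp2l1 encodes a transcription factor of the naive pluripotency network, Tsn encodes the nucleic acid binding protein translin, Nifk a nucleolar protein that binds Ki-67, and Clasp1 a protein of growing microtubule ends. By position, 8 members lay before Tsn, 1 inside the Tsn span (E016), 4 between Tsn and Clasp1 (E018, E019, E021 and E024) and 20 inside the Clasp1 span. Before a gene means here at lower coordinates, whichever strand the gene is on. Exons and introns were not distinguished here.

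Sequence was at hand for 1 of the 33 members and for 2 promoter fragments of the same stretch, all from RefSeq promoter windows on GRCm38.p6, the assembly of mm10. E032 (chr1:118459316-118459766) is shown because it was the only member with sequence at hand. It lies inside Clasp1 just upstream of the long non-coding RNA gene 2900060B14Rik, and the 200 bases given are chr1:118459316-118459515 on the minus strand. The start of Nifk in P007 (chr1:118321593-118321892, plus strand) and of Tfcp2l1 in P011 (chr1:118627695-118627994, plus strand) are shown as an active and a weak promoter. P011 had usable constructs with members in minus orientation only, and is called weak from that orientation. Capitals mark matches to the searched motifs.
E032: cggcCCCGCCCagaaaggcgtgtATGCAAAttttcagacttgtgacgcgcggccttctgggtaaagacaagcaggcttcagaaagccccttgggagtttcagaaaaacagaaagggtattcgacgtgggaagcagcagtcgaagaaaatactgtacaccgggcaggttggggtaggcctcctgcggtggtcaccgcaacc
P007: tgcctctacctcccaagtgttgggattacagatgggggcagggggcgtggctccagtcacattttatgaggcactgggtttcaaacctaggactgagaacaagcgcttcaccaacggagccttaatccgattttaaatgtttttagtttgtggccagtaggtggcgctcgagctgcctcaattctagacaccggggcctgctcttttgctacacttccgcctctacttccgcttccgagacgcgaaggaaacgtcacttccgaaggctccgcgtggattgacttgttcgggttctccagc
P011: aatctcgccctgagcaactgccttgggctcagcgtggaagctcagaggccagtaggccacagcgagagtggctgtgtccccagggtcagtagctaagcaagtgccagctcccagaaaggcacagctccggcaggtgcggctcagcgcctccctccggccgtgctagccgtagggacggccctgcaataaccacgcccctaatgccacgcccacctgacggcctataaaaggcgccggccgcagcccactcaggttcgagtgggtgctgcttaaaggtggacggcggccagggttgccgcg

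The motifs searched on both strands were AAGGTCA (Esrrb, Nr5a2), ATGCAAA (the Oct4 octamer), CATTGTT (Sox2), GGGTGTG (Klf), TGACTCA (AP-1), GGGCGGG (Sp, Klf) and CCNGNNNNNNCCNG (Tfcp2l1). The E032 window held 1 octamer, present in 3.45% of the 32851 RefSeq windows cut to the same length, and 1 match to GGGCGGG, on the other strand and present in 16.3%. It held 12 CpG dinucleotides against a median of 4 in those windows. The P007 and P011 windows held no match to any of these letters, and 17 and 21 CpG dinucleotides against a median of 7.

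Alone, without a second fragment, 16 members were higher than the median cCRE of the library and 9 were lower, by limma with Benjamini-Hochberg adjustment over the 224 cCREs measured alone at 0.05. Over all 224, 37.5% were higher and 34.8% lower, so the share of higher members (48.5%) lay above that of the library and the share of lower members (27.3%) below it. All 8 members before Tsn were among the higher ones, with a median of 2.49 on the log2 scale relative to the median cCRE. Inside Clasp1, 6 of 20 members were higher and 7 lower, with a median of -0.01. The 3 most active members were E004, E032 and E042, and the 3 least active were E035, E046 and E048.

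E004 alone in plus orientation had activities of 1.75, 1.47 and 1.38 in replicates 1 to 3, against 0.0780, 0.105 and 0.106 for the median cCRE. Averaged over both orientations it stood 3.48 above that median on the log2 scale (SD 0.46, n = 3), with a limma adjusted p of 3.73e-05. E004 shares 249 bp with E005, whose value was 2.82 (SD 0.57, n = 3), so these neighbours are largely the same DNA. E032 alone gave 0.968, 0.852 and 1.20 in plus and 0.983, 0.957 and 1.27 in minus orientation, so its orientations overlapped. Its log2 value was 3.43 (SD 0.29, n = 3). E042 gave 0.994, 0.728 and 1.00 in plus orientation, with a log2 value of 3.17 (SD 0.41, n = 3).

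Some members differed between their orientations alone, which was not tested. E013 gave 0.465, 0.417 and 0.580 in minus but 0.0891, 0.109 and 0.117 in plus orientation, with no overlap. E021 was the other way round, at 0.429, 0.428 and 0.494 in plus and 0.0719, 0.101 and 0.0860 in minus orientation. E033 gave 0.339, 0.375 and 0.340 in plus and 0.0242, 0.0327 and 0.0814 in minus orientation. At the low end, E035 gave 0.0189, 0.0484 and 0.0495 in plus orientation and a log2 value of -1.84 (SD 0.27, n = 3). The mix held an empty vector, which alone gave 0.161, 0.186 and 0.190, more than the median cCRE. Relative to that vector, 12 of the 33 members were higher and 16 lower by limma, against 25.4% and 63.4% of all 224 cCREs.

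In front of promoters, the members are described by the boost index, which is log2 activity minus that of the median construct with the same promoter in the same orientation and replicate. The table listed 667 constructs of a member followed by a promoter, covering 29 of the 33 members with a construct and 38 promoter orientations with enough constructs for a median. Of these constructs 55, or 8.25%, had a replicate at 0 and were left out, against 9.54% in the whole library. The log2 activities of the others correlated between replicates with r from 0.91 to 0.93. No barcode or read number per construct was at hand, so the precision that depth gives cannot be stated.

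Of the 25 members with at least 3 promoter fragments, 13 had a mean index above 0 and 5 below 0 by limma after adjustment over all 169 such cCREs. Over all 169, 32% were higher and 34.9% lower. Members were thus higher in 52% and lower in 20% of cases, and their median index was 0.39 against -0.05 for all. Before Tsn, 6 of 7 tested members were higher and 1 was lower, while inside Clasp1 the numbers were 6 and 3 of 14. The other 8 members (E007, E024, E038, E039, E043, E045, E047 and E048) had too few promoters for a mean.

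E042 had the highest mean index, at 3.49, 2.57 and 2.88 in the replicates, a mean of 2.98 (SD 0.47, n = 3) and a limma adjusted p of 2.59e-06. That mean rests on 6 constructs, all in plus orientation, whose indices ran from 0.10 to 4.98. E015, which lies 13660 bp before Tsn, followed with 3.21, 2.52 and 2.56 over 16 constructs, all in minus orientation and all above 0. E005 gave 2.93, 1.99 and 1.98 over 34 constructs, again all above 0. For these members every replicate lay far above 0, and replicate 1 was the highest.

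Further along, E012 had a mean index of 2.02, E002 of 1.97, E030 of 1.88, E004 of 1.68, E021 of 1.40, E032 of 1.31 and E026 of 1.05. The overlapping E004 and E005 both passed, with E005 the higher in all 3 replicates. E032 was above 0 in 47 of 52 constructs and on 20 promoter fragments, the most of any member. E044 (0.64), E029 (0.39) and E008 (0.74) passed with smaller values. The means of E002 and E030 rest on minus orientation only and those of E026 and E044 on plus only, so the ranking mixes cCRE and orientation. E008 ranged from 0.02 to 1.52 between replicates. Without replicate 1 the adjusted p by limma was 0.14 for E008 and 0.079 for E029, and without replicate 3 it was 0.16 and 0.19. Both also missed the threshold with zeros kept, at 0.11 and 0.061.

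The 5 members below 0 were E049, E019, E013, E046 and E034, and without replicate 3 there were 3. With zeros kept at a pseudocount of 0.01, 10 of 27 members were lower, against 48% of 175 cCREs. E013 gave -0.60, -0.71 and -0.52 in the replicates, with 7 of 38 constructs above 0 and a limma adjusted p of 0.00188. It is the 1 member whose calls opposed each other, since its activity alone was above the median cCRE by 1.23 (SD 0.19, n = 3). E049 gave -0.47, -0.76 and -1.06 over only 3 constructs, since 4 of its 7 had a replicate at 0. E019 had a mean of -0.69 (SD 0.26, n = 3), with 4 of its 11 constructs above 0 and a median construct of -0.55. The median taken within each replicate and then averaged gave 0.10, which did not pass (limma adjusted p 0.55). E046 (-0.50) and E034 (-0.38) did not pass without replicate 3, with adjusted p values by limma of 0.098 and 0.38, nor did E046 without replicate 1, at 0.14. All usable constructs of E046 before a promoter were in minus orientation.

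Members that did not pass included some with a single construct far out of range. E018 had a mean index of -0.05 over 25 constructs, of which 1 stood at 5.65. E036 (0.00), E028 (0.12) and E027 (0.27) had indices near 0 on 16 to 19 promoter fragments. With the promoter alone in place of the median construct as the base, 10 members were higher and 10 lower by limma, against 24.9% and 56.8% of all 169 cCREs. On that base E044 (0.29), E008 (0.33) and E029 (0.00) did not pass, and E026 fell to 0.66.

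The promoters themselves spanned a wide range, and the index of several members differed between weak and active ones. Promoters were split at a median log2 activity of -2 over their constructs into 15 active and 23 weak orientations, with 243 and 368 usable constructs of members. This split was chosen with earlier results of these data known. On weak promoters the member indices had a median of 0.63 and an SD over constructs of 1.77, and on active ones 0.10 and 1.02. Of the 22 members with at least 2 promoters in each class, 10 were higher on weak promoters and 1 was lower by limma after adjustment over 162 cCREs, and without replicate 1, 2 were lower. Over all 162, 24.1% were higher and 8.02% lower. Close to the split lay P024 in minus at -1.98 and P025 in minus at -1.91. A split at the median promoter left 4 of 22 members higher, a share close to the 18.3% of all 164 cCREs.

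E030 showed the widest gap. Its differences between weak and active promoters were 2.17, 2.65 and 2.90 in the replicates, with a mean of 2.57 (SD 0.37, n = 3) and a limma adjusted p of 6.22e-06. The mean index was 2.52 on 6 constructs with weak promoters and -0.05 on 2 with active ones. E002 (1.79) and E005 (1.54) came next. With the split at the median promoter E005 stood at 0.81, and E002 at 0.75 did not pass (limma adjusted p 0.067). E042 could not be tested, but its 5 constructs with weak promoters ran from 2.66 to 4.98 and its 1 construct with an active promoter, P022 at the Ptpn4 start in plus orientation, stood at 0.10. E019 went the other way, at -1.13, -2.11 and -1.97 (mean -1.74, SD 0.53, n = 3; limma adjusted p 0.00021), with a mean index of 0.26 on active and -1.48 on weak promoters.

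Orientation in front of a promoter was compared over promoters measured with both orientations of a member. Of 11 members with at least 3 such promoters, 3 were higher in plus and 5 in minus orientation by limma with adjustment over 91 cCREs. Over all 91, 27.5% were higher in plus and 16.5% in minus orientation, so members higher in minus (45.5%) were more frequent than in the library. E012 gave plus minus minus differences of -1.80, -1.45 and -1.91 (mean -1.72, SD 0.24, n = 3; limma adjusted p 0.0036), and plus was above minus on 1 of 11 promoters. The means of E005 (-1.26), E034 (-0.99), E016 (-0.92) and E013 (-0.55) were also lower in plus. Plus was nonetheless above minus on 3 of 7, 4 of 9, 5 of 10 and 1 of 5 promoters for these. The E034 mean includes the single construct on P015 at an index of 6.45, and with zeros kept it was -0.49.

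E032 favoured plus on 15 of 16 promoters, with differences of 1.64, 0.93 and 1.11 (mean 1.23, SD 0.37, n = 3). E021 favoured plus on 11 of 13, with a mean of 1.08. E018 had a mean of 1.29, with plus above minus on 4 of only 6 promoters, 1 of them the construct at 5.65. Without replicate 2, 3 members in place of 5 were lower in plus. Without replicate 3 no member passed in limma, nor did any other of the 91 cCREs, while 3 and 4 members had an unadjusted p under 0.05 in the plus and minus directions.

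Single member and promoter constructs were then set against the same promoter alone. Of 602 tested, 173 were higher and 94 lower by limma with adjustment over all 4945 such constructs of the library. Over all 4945, 23.8% were higher and 19.7% lower, against 28.7% and 15.6% of the members' constructs. Against the median construct with that promoter instead, 202 were higher and 41 lower, against 25.8% and 8.79% of the library. The empty vector was 1.62 higher on the log2 scale alone than in the paired library, where it gave 0.0460, 0.0658 and 0.0654, and the part of this shift in these counts was not tested. Leaving out replicate 2 left 102 higher and 32 lower, and leaving out replicate 3 left 108 and 36.

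The RefSeq promoter window of Tfcp2l1 lay in P011. P012 (chr1:118627992-118628442) overlaps P011 by 27 bp and lies almost wholly beyond that window, inside the Tfcp2l1 span. P012 in minus orientation alone gave 0.152, 0.156 and 0.159. With E032 in plus orientation before it, activity was 1.69, 1.78 and 1.78, higher by 3.49 on the log2 scale (SE 0.13, n = 3 in each group; limma adjusted p 3.96e-05). The replicates of pair and promoter lay far apart. E032 in plus also raised P012 in plus orientation, from 0.104, 0.135 and 0.111 to 1.16, 1.07 and 1.47. E032 in minus orientation raised P012 in minus by 1.19.

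Further members passed on P012 in minus orientation. E004 in plus was higher by 3.03, E005 by 2.58 in plus and 2.46 in minus orientation, E021 in plus by 2.43 and E044 in plus by 1.14. The other way, E016 was lower by a log2 value of -2.24 in plus and -2.55 in minus orientation. E035 in plus stood at -1.46, E028 in plus at -1.30 and E036 in plus at -0.98. The median construct over all cCREs on P012 in minus orientation lay at -3.50 on the log2 scale. That was below P012 alone at -2.68, so constructs of other cCREs lay below it too. P011 in minus orientation had 3 usable constructs with members, and none of them passed in limma. E032 in plus gave 0.0862, 0.0569 and 0.123 on it, against 0.0591, 0.0579 and 0.0483 for P011 alone, so the replicates overlapped.

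The promoter fragment P010 (chr1:118389097-118389547) lies inside the Clasp1 span, close to its low-coordinate end, and overlaps the fragment P009 by 35 bp. Alone, P010 gave 4.64 to 5.42 over both orientations and replicates. The largest upward change on P010 was smaller than on P012. E004 in plus on P010 in minus orientation gave 10.0 to 11.3 in the 3 replicates, higher by 1.06 (SE 0.14; limma adjusted p 0.00261), and E032 in plus on P010 in plus orientation was higher by 0.80. E013 in plus orientation was lower in both forms, with 1.16, 1.15 and 0.921 on P010 in plus orientation, a log2 difference of -2.16 (SE 0.16; limma adjusted p 0.000271). Its difference on P010 in minus orientation was -1.92. E021 in plus orientation, which was higher on P012, was lower on P010 in plus at -1.08.

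At the Nifk start, P007 in plus orientation alone had 14.8 to 17.6 in the 3 replicates, and none of its 3 constructs with members was higher. In minus orientation P007 alone gave 0.613, 0.680 and 0.716. E029 in plus orientation brought it to 2.42, 3.01 and 2.51, higher by 1.98 (SE 0.16; limma adjusted p 0.000403). E013 in plus and E021 in minus orientation were lower on it, at -1.32 and -1.52.

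P006, just beyond the Tsn span at higher coordinates, differed between its orientations. In plus orientation it gave 0.225, 0.263 and 0.263 alone, and of 17 constructs with members 0 were higher and 12 lower by limma. Its median construct over all cCREs lay at -4.52 on the log2 scale, below every replicate of P006 alone, so constructs of other cCREs lay below it too. In minus orientation 8 of 29 were higher and 2 lower. Over all 4945 constructs of the library, on any promoter, 23.8% were higher and 19.7% lower. No share over all cCREs on P006 was at hand, so these counts are not a trait of the members. On P006 in minus orientation, E021 in minus orientation gave 1.05, 1.09 and 0.874 against 0.0466, 0.0773 and 0.0957 alone, higher by 3.83. E036 in plus orientation was higher there by 3.13. Each was the highest index of that member before any promoter. The mean index was 0.55 over 16 constructs of E021 in minus and -0.02 over 24 of E036 in plus orientation.

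The 2 largest differences from a promoter alone came from single constructs whose other forms lay near that promoter's level. E034 in minus on P015 in plus orientation gave 2.88, 2.18 and 2.68 against 0.0137, 0.0509 and 0.0418 alone, higher by 6.38 (SE 0.52; limma adjusted p 0.000386). P015 lies between genes, outside the span of Inhbb, its nearest protein-coding gene. E034 in plus orientation on the same promoter gave 0.00570, 0.0818 and 0.0253, overlapping the promoter alone. E018 in plus on P033 in minus orientation, at Marco, gave 1.92, 2.16 and 2.04, higher by 5.67, while the other 3 forms of that pair stayed at or below 0.0792. Such isolated values agreed between replicates, which share the plasmid pool.

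E015 in minus on P021 in minus orientation, at Epb41l5, had the highest activity of these, at 15.6, 13.5 and 11.4 against 0.290, 0.265 and 0.264, higher by 5.62. Here the member was high on other promoters too. E005 in minus on P017 in plus orientation was higher by 4.95 and E042 in plus on P016 in minus orientation by 4.39. E047 in plus orientation, with constructs on P016 only, gave 1.16, 1.29 and 1.13 on P016 in minus and 0.0518, 0.0733 and 0.00972 on P016 in plus orientation. Of the 3 lowest, E035 and E028 in plus orientation stood on P006 in plus, at -4.28 and -3.93. The other was E019 in plus on P013 in minus orientation at -3.96. The median construct over all cCREs on P006 in plus orientation also lay below that promoter alone, at -4.52 on the log2 scale. Relative to that median, the lowest index of a member there was -1.76. E019 in plus on P013 in minus orientation had an index of -3.31.

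Paired with another cCRE, members were described by the same kind of index, log2 activity minus that of the median construct with the same oriented partner at the same position. The table listed 10188 such constructs with a member, 7.49% with a replicate at 0, and their replicates correlated with r of 0.90. Of 29 members with at least 10 partners, 15 were higher and 11 lower by limma after adjustment over 202 cCREs. Over all 202, 38.1% were higher and 52% lower, so most cCREs passed. Limma gave all cCREs 1 common standard error here, 0.10, and sizes are given in place of p-values.

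E005 was the highest, at 3.58, 2.81 and 2.78 (mean 3.06, SD 0.46, n = 3) over 587 constructs. E042 (2.63) and E002 (2.60) followed. The lowest were E035 with -1.56, -1.03 and -1.14 (mean -1.25, SD 0.28, n = 3), E046 (-1.16) and E039 (-1.04). Before Tsn, 7 of 8 members were higher and none lower, since E013 at -0.09 did not pass. Inside Clasp1, 7 of 17 were higher and 9 lower.

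The 3 readouts ranked the members alike. Over members Pearson's r was 0.91 between the promoter and cCRE indices (n = 25), 0.84 between the promoter index and activity alone (n = 25) and 0.89 between the cCRE index and activity alone (n = 29). These are descriptions over fragments that share cells and libraries, and the values over all cCREs of the library were 0.92, 0.89 and 0.91. Of the 25 members with all 3 readouts, 11 were higher in each (E002, E004, E005, E008, E012, E015, E021, E029, E030, E032 and E042), and E046 was lower in each, against 28.6% and 20.2% of the 168 cCREs with all 3. E008 and E029 lost their promoter call without replicate 1 or 3, as given above.

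The place in a pair made a difference for most members, 17 of 19, as it did for most cCREs of the library, 110 of 145. Comparing the same oriented member with the same oriented partner at both positions, 10 of 19 members were higher as the first fragment and 7 as the second, by limma with adjustment over 145 cCREs. Over all 145, 44.1% were higher as the first and 31.7% as the second. E032 differed most, by -1.74, -1.63 and -1.70 for first minus second (mean -1.69, SD 0.05, n = 3; limma adjusted p 2.44e-05). It was higher as the first fragment in only 12 of 177 matched pairs, with a mean index of 1.36 there and 3.04 as the second.

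E013 (-1.04), E027 (-0.84) and E044 (-0.82) were also higher as the second fragment. E033 was higher as the first by 1.33, 0.83 and 0.77 (mean 0.98, SD 0.31, n = 3), over 19 matched pairs, followed by E035 (0.79) and E036 (0.54). With zeros kept, E035 fell to 0.34, below E036 at 0.40. The overlapping E004 and E005 were both slightly higher as the second fragment, at -0.41 and -0.30.

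Orientation and place acted together for E013. In minus orientation as the second fragment its index was 1.66, 1.15 and 1.70 (SD 0.31, n = 3), above 0 in 195 of 225 constructs. In minus orientation as the first fragment it was -1.15 (SD 0.24, n = 3; 6 of 33 constructs above 0), and in plus orientation -1.03 as the first and -1.23 as the second. With a promoter before it, in the reversed order, E013 in minus orientation stood at 1.96 (SD 0.24, n = 3; 24 of 25 constructs above 0). Of the 38 constructs behind its low promoter index, 33 were in plus orientation. Which genomic strand plus stands for is not given in the sources used here. These values by form were not tested.

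E030 and E021 also differed between forms. E030 as the first fragment was measured in minus orientation only, where its index was 1.98 (SD 0.29, n = 3; 43 of 45 constructs above 0). As the second fragment it was almost always in plus orientation, where the index was -0.47 (SD 0.17, n = 3; 11 of 46 above 0), although alone this orientation gave 0.572, 0.847 and 0.826. Its mean of 0.77 holds both. The 1 construct with the minus orientation second stood at 3.06, and at 2.54 in the reversed order, so orientation and place were separated by that pair alone. E021 in plus orientation stood at 1.92 as the first and 1.51 as the second fragment, and in minus orientation at 0.98 and -0.29. E032, by contrast, was above 0 in every one of 96 plus and 263 minus constructs as the second fragment.

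Set against the second fragment alone, 1905 of 4692 constructs with a member first were higher and 688 lower by limma with adjustment over 39844 constructs. Over all 39844, 34% were higher and 17.4% lower, against 40.6% and 14.7% for members. Without replicate 3, 420 were lower. The highest was E042 in plus before E228 in minus orientation, at 13.7, 9.66 and 9.90 against 0.0209, 0.0493 and 0.0380 for E228 alone, higher by 8.33 (SE 0.37). Other forms of a pair again could be far lower. E016 in plus before E217 in plus orientation gave 6.18, 5.89 and 6.95, while both in minus orientation gave 0.0133, 0.0460 and 0.00198.

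E027 in minus orientation was in 2 of the 5 highest pairs, with E033 in minus orientation (4.09, 3.68 and 3.88) and with E095 in plus orientation (3.15, 2.21 and 3.14). With E095 in minus orientation it gave 0.0459, 0.104 and 0.0196. E019 in plus before E191 in minus orientation was higher by 6.36. The lowest was E013 in plus before E030 in plus orientation, at 0.00913, 0.00551 and 0.0335 against 0.572, 0.847 and 0.826 for E030 alone, a difference of -5.95 (SE 0.67). E035 in plus orientation lay lowest after that, before E057 in plus (-5.36) and E097 in minus orientation (-5.35).

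Most pairs stayed below the sum of the activities of their fragments alone. Averaged per member, log2 of observed over summed activity was below 0 for 24 of 29 members and above 0 for 2 by limma with adjustment over 197 cCREs. Over all 197, 92.4% were below and 1.52% above. E005 gave 0.30, 0.46 and 0.28 (mean 0.35, SD 0.10, n = 3; limma adjusted p 0.00162) and E002 0.30, 0.29 and 0.33 (mean 0.31, SD 0.02, n = 3; limma adjusted p 0.00256). E015 (0.08), E026 (0.06) and E012 (-0.03) did not pass. The lowest member was E033 at -2.12. The shift of the empty vector between alone and paired libraries also stands beside these sums, and its part was not tested.

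Of the 596 pairs of 2 members, 40 had a replicate at 0 and were left out. The other 556 all had both fragments measured alone, and 36.2% of them exceeded the sum. Among all such pairs of the library without a replicate at 0 the share was 24.5%. E032 in minus before E044 in plus orientation was the most active, at 5.67, 7.29 and 8.67. E044 in plus orientation alone gave 0.175, 0.182 and 0.226, and with E032 in plus orientation before it 2.02, 1.93 and 2.40. The reversed order, E044 in plus before E032 in minus orientation, gave 2.32, 1.88 and 2.45. E005 in minus before E012 in plus orientation gave 5.96, 5.70 and 5.62, and before E012 in minus orientation 6.15, 5.69 and 4.92, so the replicates of both forms overlapped. E012 in plus before E005 in plus orientation gave 6.08, 4.65 and 5.40.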

How the data were processed

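Members and lists were chosen with earlier results of these data known. The authors' deposited activity per oriented construct and replicate is a linear ratio of cDNA to plasmid DNA, per the labels. The submitters' processing notes name mm10 and Bowtie2; barcode filters and averaging are not given in the sources used here. Of the value columns, 3 were given to no sample. Samples were grouped by title, and replicates are the labels' biological replicates.

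Log2 ratios were fitted with limma 3.58.1 in R 4.3.3 (lmFit, eBayes; Benjamini-Hochberg at 0.05) across all constructs or cCREs of the Tfcp2l1 library. Tables were made with Python 3.11.15, numpy 2.4.6 and pandas 2.3.3. Medians behind an index needed 10 constructs, and a construct at 0 in any replicate was dropped. Fits were tested on simulated data. A construct and its base in the same replicate come from 1 transfection, so replicate numbers pair them, and a fit with the replicate as a block was an alternative. Others were leaving out each replicate, a pseudocount of 0.01, other bases, medians, stricter minima, a filter on low activity and another promoter split. A base without a minimum and the empty vector as reference were chosen after seeing the data.

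Named were members past the threshold on the promoter index (up to 12 highest and 6 lowest), the 3 highest and lowest alone and paired, the 3 largest of each sign on the differences, the 5 highest and 3 lowest constructs and overlapping members. The values by form, the constructs at the Tsn, Nifk, Clasp1 and Tfcp2l1 promoters and other members given were chosen after their values were seen. The Klf2, Nanog and Downstream tables were not analysed here.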

Additional observations from a re-analysis of the deposited data

How the results depend on the processing

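Depth per construct is unknown, and the 3 replicates share 1 plasmid pool. Leaving out each replicate in turn gave 11 to 13 members higher and 3 to 6 lower on the promoter index, 8 to 9 lower alone, 0 to 3 higher and 0 to 4 lower on orientation, and 9 to 10 higher and 1 to 2 lower on weak minus active promoters. It gave 102 to 150 higher and 32 to 90 lower promoter constructs, and 1462 to 1746 higher and 420 to 613 lower cCRE pairs. With the replicate as a block these pair counts were 163 and 95, and 1854 and 682, so the pairing changed none of them by over 1.5 times. The lower members on the promoter index were 10 with zeros kept at a pseudocount of 0.01 and 10 with the promoter alone as base. A minimum of 8 promoter fragments left 8 of 18 members higher, and no share over all cCREs was at hand for it. With the empty vector as reference, 16 were lower alone. A split at the median promoter left 4 higher on weak promoters, and the pseudocount gave 2 lower. Against the higher of both fragments alone, 5 of 29 members were above, again without a share over all cCREs at hand. Against the median construct, 41 promoter constructs were lower. E019 stood at 0.10 with the median over constructs taken within each replicate, though the median of its construct means was -0.55. The cause of these shifts was not tested. Among single cCREs named, 240 values kept their direction and side of the threshold, 16 lost it and 1 reversed.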

Other observations

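With the promoter first and the cCRE second, 28 members could be averaged over at least 3 promoter fragments, relative to the median construct with the same oriented promoter first. Their median was 0.72 against -0.15 for all cCREs of the library, and 17 of 28 lay above 0. E042 was again the highest, at 3.77, 2.94 and 3.27 (mean 3.33, SD 0.42, n = 3) over 20 constructs, followed by E032 at 3.29, 2.90 and 3.27 (mean 3.15, SD 0.22, n = 3) over 44. E032 was thus higher here than with the promoter second, where its mean was 1.31, and the difference was not tested. E046 was the lowest, at -1.41 (SD 0.22, n = 3).

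E007, which had no construct before a promoter, stood at 1.20 (SD 0.29, n = 3) behind one, and E030 at -0.55 (SD 0.28, n = 3), all in plus orientation. Of the 25 members averaged in both orders, 22 had the same sign, with a Pearson's r of 0.74 and a Spearman's rho of 0.74 over cCREs that share cells and libraries. E013 changed sign, from -0.61 to 1.74 (SD 0.26, n = 3).

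E024, which lies 539 bp before Clasp1, was measured alone in plus orientation at 0.618, 0.693 and 0.832, among the highest of the members, but had no construct before a promoter and only 2 with another cCRE. Its 1 construct behind a promoter, in minus orientation, had indices of 2.19, 2.34 and 1.05.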
